A study of Homo sapiens with 6 samples.

Results

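The miR-15/16 family is a group of miRNAs that share a seed, the bases 2 to 8 at the 5′ end through which a miRNA pairs with its target mRNAs. The 10 members described here, of 2588 mature miRNAs in the table, were taken by name. They were the 7 guide strands miR-16-5p, miR-15a-5p, miR-15b-5p, miR-195-5p, miR-424-5p, miR-497-5p and miR-503-5p, and the 3 passenger strands miR-15b-3p, miR-16-2-3p and miR-424-3p, which are cut from the opposite arm of the same hairpins. Small RNA was sequenced from Huh7 cells, a human hepatoma line, 48 h after transient transfection by lipofection. A total of 3 samples (overexpression) received the plasmid carrying hsa_circ_0098181, and 3 samples (control) received its control plasmid. The comparison asked which miRNAs differ in level when this circular RNA (circRNA) is overexpressed. The table lists mature miRNAs, so the level of the circRNA itself was not analysed here. The labels do not say whether the 3 samples of a group were separate cultures, and the p-values therefore measure the spread between these samples, which may be technical.

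A miRNA gene is transcribed as a hairpin precursor, from which one strand is usually kept in the Argonaute protein as the guide while the passenger strand is mostly degraded. Guides of the miR-15/16 family repress cell cycle and survival genes such as CCND1, CCNE1 and BCL2, and they are known as brakes on proliferation. MIR15A and MIR16-1 lie in a region of chromosome 13 that is often lost in chronic lymphocytic leukaemia. The family is made from small gene clusters on several chromosomes, and miR-16-5p is made from more than one of them.

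The sequences of the 7 guides are shown because the shared seed defines the family and because similar sequences can compete for the same reads. They were taken from RefSeq (GRCh38.p14), in which all 10 members were found, and are written 5′ to 3′ with bases 2 to 8 in capitals.
hsa-miR-16-5p: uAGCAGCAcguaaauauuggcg
hsa-miR-15a-5p: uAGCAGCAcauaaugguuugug
hsa-miR-15b-5p: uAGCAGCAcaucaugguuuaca
hsa-miR-195-5p: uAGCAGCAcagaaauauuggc
hsa-miR-424-5p: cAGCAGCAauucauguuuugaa
hsa-miR-497-5p: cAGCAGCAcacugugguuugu
hsa-miR-503-5p: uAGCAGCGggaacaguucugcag

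6 of the 7 guides had the seed AGCAGCA, and miR-503-5p matched it at bases 2 to 7 and ended its seed in G. Of the 2370 mature miRNA names in the RefSeq table, 9 (0.38%) had AGCAGC at bases 2 to 7. The 2 outside the members were miR-646 and miR-6838-5p, and both had 0 counts in all 6 samples, which allows a level of up to 0.278 to 0.420 TPM (the count scaled to the total of its library) depending on the library. miR-16-5p and miR-195-5p were identical at 19 of 21 positions and differed by G10A and U11G, with the base of miR-16-5p first and positions counted from the 5′ end. miR-15a-5p and miR-15b-5p were identical at 18 of 22 positions. The study's text does not say how reads that match several miRNAs were assigned. The mean level of miR-195-5p was 0.0247% of that of miR-16-5p, so its counts are uncertain in this respect.

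The 3 passenger strands are shown in the same way, since their seeds differ from that of the guides and from one another.
hsa-miR-15b-3p: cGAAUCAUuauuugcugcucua
hsa-miR-16-2-3p: cCAAUAUUacugugcugcuuua
hsa-miR-424-3p: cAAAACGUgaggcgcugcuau

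The members came from 8 hairpins on 4 chromosomes. In RefSeq (GRCh38.p14), MIR15A (chr13:50049119-50049201, minus strand) and MIR16-1 (chr13:50048973-50049061, minus strand) were separated by 57 bases inside the long non-coding RNA gene DLEU2. MIR15B (chr3:160404588-160404685, plus strand) and MIR16-2 (chr3:160404745-160404825, plus strand) were separated by 59 bases inside SMC4, a protein-coding gene for a condensin subunit. MIR195 (chr17:7017615-7017701, minus strand) and MIR497 (chr17:7017911-7018022, minus strand) lay 209 bases apart inside the non-coding gene MIR497HG. MIR424 (chrX:134546614-134546711, minus strand) and MIR503 (chrX:134546328-134546398, minus strand) lay 215 bases apart. MIR503 was inside the non-coding gene MIR503HG (chrX:134543377-134546630). The hairpin of MIR424 overlapped the high-coordinate edge of that gene, and most of it lay outside. The next hairpin of the X cluster, MIR542, was 4890 bases away from MIR503, and the MIR450 genes belong to the same cluster. The mature sequence of miR-16-5p is the same from MIR16-1 and MIR16-2, so its count cannot be divided between chromosomes 13 and 3.

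The totals ranged from 7144798 to 10786295 counts per sample, and all 10 members were among the 552 miRNAs with enough counts to be tested, which held 99.98% of all counts. The hepatocyte markers (5 miRNAs, led by miR-122-5p) were all detected, with a summed level of 422425 to 434418 TPM in the overexpression samples and 403552 to 435332 TPM in the controls. Of the blood cell markers, 1 of 6 (miR-142-3p) had at least 10 counts in every sample, with sums of 13.9 to 14.7 and 17.1 to 19.7 TPM. The sums were 4178 to 4341 and 3811 to 4292 TPM for 2 endothelial markers, 115 to 123 and 123 to 132 TPM for 4 stromal markers, 1.45 to 2.24 and 1.68 to 2.23 TPM for 3 striated muscle markers, and 115 to 131 and 98.6 to 149 TPM for 2 neuronal markers. No marker was at 0 in every sample, and the part of these markers in the results was not tested. The sums were uneven within a list. Among the neuronal markers the means were 123 TPM for miR-9-5p and 3.10 TPM for miR-124-3p. Among the stromal markers they ran from 86.0 TPM for miR-143-3p to 0.0557 TPM for miR-214-3p. Whether other cell types were present was not tested. Control replicate 3 stood apart from the other controls. Its median absolute log2 difference from them, over 295 abundant miRNAs, was 0.24 and 0.21, against 0.075 between control replicates 1 and 2. Over the 10 members these differences were 0.20, 0.18 and 0.075. From overexpression replicates 1, 2 and 3, control replicate 3 differed by 0.15, 0.22 and 0.19 over the abundant miRNAs. Over the members it differed from them by 0.092, 0.16 and 0.096, so it was nearer to each of them than to the other controls. Each result is also given without this library where the call depends on it. The library was singled out after the data were seen, so p-values from fits without it can be too small. In such bulk samples, fewer cells with a miRNA and less of it per cell cannot be told apart.

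miR-16-5p dominated the family. The authors' TPM is a count scaled only to the total of its own sample, without a correction for length. The members differ by only a few bases in length, so the missing length correction matters little between them. No correction was made for differences between sequences in how readily they are captured and read. Levels, folds and arm shares set side by side between members are therefore those of reads and may not be those of molecules. Where 3 values are given for a plasmid, they are those of replicates 1 to 3 in that order. The level of miR-16-5p was 158392, 147420 and 146333 TPM with the circRNA plasmid and 140245, 145901 and 159051 TPM with the control plasmid. It was the second most abundant miRNA of the table, after miR-122-5p, and made up 96.4% ± 0.323 of the counts of the 7 guides in overexpression and 95.8% ± 0.284 in the controls (mean ± SD, n = 3 each). The next member, miR-15b-5p, was 40.5-fold lower, with a mean of 3690 TPM ± 329 (SD, n = 6). miR-15a-5p followed at 1770 TPM ± 181 and miR-15b-3p at 1137 TPM ± 81.2. The remaining means were 396 TPM ± 78.4 for miR-424-5p, 87.4 ± 14.5 for miR-503-5p, 64.9 ± 4.43 for miR-16-2-3p, 36.9 ± 4.15 for miR-195-5p, 23.4 ± 2.39 for miR-424-3p and 16.3 ± 2.33 for miR-497-5p. This order of the 10 members was the same in 6 of 6 samples. The ranges of neighbours over the samples did not overlap, except for miR-503-5p, which had 67.7 TPM in its lowest sample, and miR-16-2-3p, which had 72.7 TPM in its highest.

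Together the 10 members held 15.8% ± 0.655 of the counts in overexpression and 15.6% ± 0.967 in the controls (mean ± SD, n = 3 each). The difference of 0.15 percentage points was smaller than the SD of either group with all samples. Without control replicate 3 it was 0.68, about the SD of the overexpression group, with the total taken without miR-122-5p it was 0.83, and without overexpression replicate 1 or control replicate 1 it was -0.23 or -0.26. miR-122-5p, the liver-specific miRNA, held 33.1% ± 0.895 and 31.3% ± 1.02. The sum of miR-16-5p and miR-122-5p was 48.2% ± 0.406 in the overexpression group and 46.2% ± 0.635 in the controls. TPM shares out a fixed total, so the other miRNAs had less of the total in the overexpression samples. For the comparison, counts were scaled by edgeR's TMM factors, which correct for such a shift in composition, and values on this scale are given below as TMM-scaled CPM (counts scaled to the effective library size). The TMM factors were 0.996, 0.921 and 0.967 with the circRNA plasmid and 1.00, 1.03 and 1.09 with the control plasmid. Without them, that is with the library size alone, the 552 tested miRNAs had a median log2 fold change of -0.11. The log2 fold changes below compare overexpression with control, so that a negative value is a lower level in overexpression.

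No member passed the threshold of 0.05 on the adjusted p in the comparison of all 6 samples (edgeR's quasi-likelihood test, Benjamini-Hochberg adjustment over 552 miRNAs), and neither did any other miRNA (0% of those tested). DESeq2 and limma also gave 0 members. At an unadjusted p under 0.05, 2 members were lower (miR-424-5p and miR-503-5p), against 4.71% of all tested miRNAs, and 1 was higher (miR-16-5p), against 4.35%. DESeq2 gave 2 members and limma 3 at that limit, among 41 and 52 of the 552 miRNAs. The log2 fold change was negative in 6 of the 10 members and in 49.1% of all tested miRNAs. The median was -0.030 over the members and 0.0038 over all tested. Among the 7 guides, 6 were lower and the median was -0.11, or -0.21 without control replicate 3.

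miR-424-5p, a guide from chromosome X known to respond to hypoxia and to restrain the cell cycle, had the most negative log2 fold change of the family. Its level was 337, 350 and 370 TMM-scaled CPM with the circRNA plasmid and 483, 488 and 343 CPM with the control plasmid. Control replicates 1 and 2 were above all overexpression samples, and control replicate 3 was within their range. This gave a log2 fold change of -0.32 (SE 0.13, 95% CI -0.59 to -0.040), with an adjusted p of 0.421 by edgeR's quasi-likelihood test. Without control replicate 3 it was -0.48 (SE 0.081), with an adjusted p of 1.9e-05 by the same test. The control SD was 82.3 CPM with all controls and 3.28 CPM without control replicate 3. Since that library was left out after the data were seen, this p can be too small.

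miR-503-5p, the guide of the neighbouring hairpin, which also targets cyclins, had 77.2, 73.5 and 84.3 TMM-scaled CPM with the circRNA plasmid and 93.7, 103 and 89.8 CPM with the control plasmid. All overexpression samples were below all controls. With all samples the log2 fold change was -0.29 (SE 0.11, 95% CI -0.52 to -0.051), with an adjusted p of 0.421 by edgeR's quasi-likelihood test, and -0.35 with an adjusted p of 0.0141 without control replicate 3. It was the only member whose groups did not overlap with overexpression lower on the TMM scale, where 6.52% of all tested miRNAs showed this.

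miR-16-5p had 158975, 160147 and 151316 TMM-scaled CPM with the circRNA plasmid and 139600, 141416 and 146218 CPM with the control plasmid. All overexpression samples were above all controls on this scale, as in 8.88% of all tested miRNAs. In TPM the groups overlapped, because control replicate 3 had the highest value of the 6 samples. The log2 fold change was 0.14 (SE 0.056, 95% CI 0.019 to 0.26), with an adjusted p of 0.421 by edgeR's quasi-likelihood test. Scaling by library size alone gave 0.022. Leaving out control replicate 3 gave 0.14 with an adjusted p of 0.0849 by edgeR.

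miR-15a-5p, made from the same transcript as one copy of miR-16-5p, had 1619, 1729 and 1750 TMM-scaled CPM with the circRNA plasmid and 1929, 1976 and 1602 CPM with the control plasmid. Control replicates 1 and 2 were above the overexpression samples, as for miR-424-5p, and control replicate 3 was the lowest of the 6. With all samples the log2 fold change was -0.11 (SE 0.096), with an adjusted p of 0.698 by edgeR's quasi-likelihood test, and -0.22 with an adjusted p of 0.0302 without control replicate 3.

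For the other guides, as for miR-15a-5p, the interval of the difference with all samples included 0. miR-15b-5p, the guide next to MIR16-2, had 3628 ± 295 TMM-scaled CPM in overexpression and 3738 ± 117 in the controls (mean ± SD, n = 3 each). Its log2 fold change was -0.043 (95% CI -0.22 to 0.14). miR-195-5p and miR-497-5p, guides from chromosome 17 that also repress cell cycle genes, had fold changes on the log2 scale of -0.13 (95% CI -0.38 to 0.13) and -0.017 (95% CI -0.39 to 0.36). miR-497-5p was the least abundant guide, with 92 to 206 counts per sample, and its level in control replicate 3 was 11.8 TMM-scaled CPM against 19.0 and 18.2 CPM in control replicates 1 and 2. The overexpression samples lay between these values, at 15.3, 17.1 and 16.5 CPM.

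The 3 passenger strands had positive log2 fold changes with TMM factors and negative ones with the library size alone. miR-15b-3p had 1185 ± 140 TMM-scaled CPM in overexpression and 1092 ± 57.6 in the controls (mean ± SD, n = 3 each), with a log2 fold change of 0.12 (95% CI -0.099 to 0.34). The log2 fold change was 0.036 (95% CI -0.22 to 0.29) for miR-16-2-3p and 0.059 (95% CI -0.21 to 0.33) for miR-424-3p. With the library size alone these values were -0.0025, -0.076 and -0.058, each above the median of -0.11 over all tested miRNAs. Every interval with TMM factors included 0. The sign also changed for miR-16-2-3p without control replicate 3 (-0.072) and for miR-424-3p without control replicate 1 (-0.020). No direction can therefore be given for the passenger strands.

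**Figure D1:**
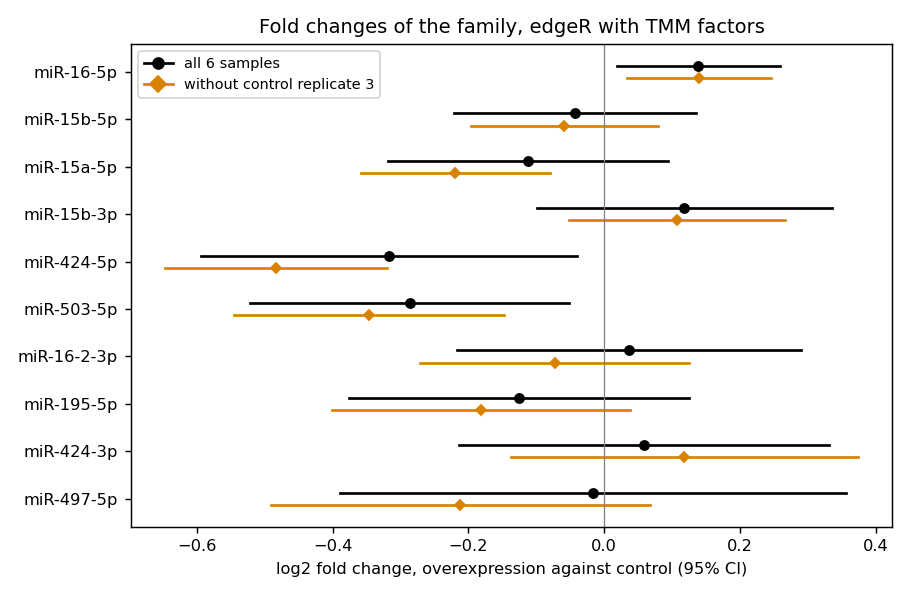
Log2 fold change of overexpression against control for each member with its 95% CI, from edgeR with TMM factors, with all 6 samples (black) and without control replicate 3 (orange). With all samples the interval excludes 0 for miR-16-5p, miR-424-5p and miR-503-5p, and without control replicate 3 also for miR-15a-5p.

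Without control replicate 3, 3 members passed the adjusted threshold and were lower in overexpression (miR-15a-5p, miR-424-5p and miR-503-5p), against 6.73% of the 565 miRNAs tested in that fit. No member was higher, against 3.19%. The median over the members was then -0.13, and over all tested miRNAs it was -0.0013. Leaving out any other sample left 0 members past the threshold.

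On the scale of the deposited TPM, 4 members did not overlap between the groups and were lower in overexpression (miR-15a-5p, miR-195-5p, miR-424-5p and miR-503-5p), against 16.3% of all tested miRNAs. No member was higher without overlap, against 1.99%. miR-424-5p had 336, 322 and 357 TPM with the circRNA plasmid and 486, 504 and 373 TPM with the control plasmid, so that control replicate 3 was just above the overexpression samples on this scale. miR-195-5p had 35.5, 29.4 and 36.9 TPM with the circRNA plasmid and 40.2, 40.1 and 39.5 TPM with the control plasmid. The 6 guides other than miR-16-5p summed to 5585 ± 423 TPM in overexpression and 6409 ± 52.8 TPM in the controls (mean ± SD, n = 3 each). The part of the larger share of miR-16-5p and miR-122-5p in these TPM values was not tested.

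Ratios of counts within a sample do not depend on the scaling. The ratio of the 2 arms of MIR424 (miR-424-3p to miR-424-5p) was -3.80, -3.91 and -3.94 on the log2 scale with the circRNA plasmid and -4.54, -4.43 and -3.76 with the control plasmid. The passenger strand made up 6.34% ± 0.317 of both arms in overexpression and 5.14% ± 1.51 in the controls (mean ± SD, n = 3 each). Control replicates 1 and 2 had the lowest ratios, and control replicate 3 had the highest. The difference of the log2 ratios was 0.36 (p = 0.4, two-sided exact permutation test) and 0.60 without control replicate 3 (p = 0.2, exact permutation test). With 3 samples against 3 this test cannot go below 0.1, and with 3 against 2 it cannot go below 0.2.

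The ratio of miR-15a-5p to miR-16-5p was -6.62, -6.53 and -6.43 on the log2 scale with the circRNA plasmid and -6.18, -6.16 and -6.51 with the control plasmid. Control replicates 1 and 2 were above every overexpression sample, and control replicate 3 lay among them. The difference was -0.24 (p = 0.2, exact permutation test) and -0.36 without control replicate 3. For miR-15b-5p to miR-16-5p it was -0.18 (p = 0.3, exact permutation test).

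The other ratios differed by less than the SD of at least a single group. The difference was 0.16 (p = 0.4, exact permutation test) for miR-15b-3p to miR-15b-5p, between the SDs of 0.12 in the controls and 0.22 in overexpression, and it was 0.034 without overexpression replicate 2. It was -0.094 (p = 0.6, exact permutation test) for miR-16-2-3p to miR-16-5p, and -0.15 (p = 0.6) for miR-195-5p to miR-497-5p. It was 0.013 (p = 1, exact permutation test) for miR-503-5p to miR-424-5p and -0.060 (p = 0.8) for miR-15a-5p to miR-15b-5p. After adjustment over the 8 ratios, the exact p was 0.8 to 1, and the groups overlapped in every ratio.

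The copies of the miR-16 gene can be told apart by their passenger strands. miR-16-1-3p, from chromosome 13, had 143 to 285 counts per sample and miR-16-2-3p, from chromosome 3, had 434 to 784. miR-16-2-3p made up 69.4% ± 3.29 of both in overexpression and 72.8% ± 2.79 in the controls (mean ± SD, n = 3 each). The log2 ratio of miR-16-1-3p to miR-16-2-3p differed by 0.23 (p = 0.3, exact permutation test), which was about the SD of this ratio in the overexpression group, 0.22. It was 0.12 without overexpression replicate 2 and 0.14 without control replicate 3. This ratio was chosen after the data were seen. It measures passenger strands and does not divide the counts of miR-16-5p.

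The 4 clusters make 12 other mature miRNAs, of which 10 were tested. miR-497-3p and miR-450b-3p had 1 count each over all samples. None of the 10 passed the adjusted threshold by edgeR's quasi-likelihood test. At an unadjusted p under 0.05, 1 was higher, against 4.35% of all tested miRNAs, and 0 were lower, against 4.71%. The log2 fold change was negative in 3 of the 10, against 49.1% of all tested, with a median of 0.034. This count turned with 1 library and with the scaling. It was 7 of 10 without control replicate 3 (median -0.061), against 284 of 565 tested miRNAs (median -0.0013). With the library size alone it was 7 of 10 (median -0.074), against 389 of 552 tested miRNAs (median -0.11). The product past the unadjusted limit was miR-450b-5p, from the far end of the X cluster, with 230, 266 and 242 TMM-scaled CPM with the circRNA plasmid and 221, 203 and 175 CPM with the control plasmid. All overexpression samples were above all controls, as in 8.88% of all tested miRNAs, and the log2 fold change was 0.30 (SE 0.11, adjusted p 0.421 by edgeR). It was 0.19 without control replicate 3 and 0.19 with the library size alone, so that its sign was opposite to that of miR-424-5p and miR-503-5p in each.

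The products of MIR424 and MIR503 had a median log2 fold change of -0.19 with 3 of 4 lower, and those of MIR542 and the MIR450 genes had a median of 0.014 with 2 of 6 lower. Without control replicate 3 the medians were -0.25 with 3 of 4 lower and -0.061 with 5 of 6 lower. With the library size alone they were -0.30 with 4 of 4 lower and -0.095 with 5 of 6 lower. Over all tested miRNAs, 271 of 552 were lower with all samples (median 0.0038). The background was 284 of 565 without control replicate 3 (median -0.0013) and 389 of 552 with the library size alone (median -0.11). Whether these parts of the cluster differed was not tested. miR-542-3p had 302, 344 and 284 TMM-scaled CPM with the circRNA plasmid and 370, 364 and 187 CPM with the control plasmid. It shared with miR-424-5p the pattern of 2 high controls and a low control replicate 3. Its log2 fold change was 0.012 with all samples and -0.26 without control replicate 3 (adjusted p 0.0385 by edgeR). On chromosome 17, miR-195-3p, which has the seed CAAUAUU in common with miR-16-2-3p, had 131 counts over all samples and a log2 fold change of 0.59 (95% CI -0.13 to 1.32), which was 0.33 without control replicate 3, where it had 9 counts.

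**Figure D2:**
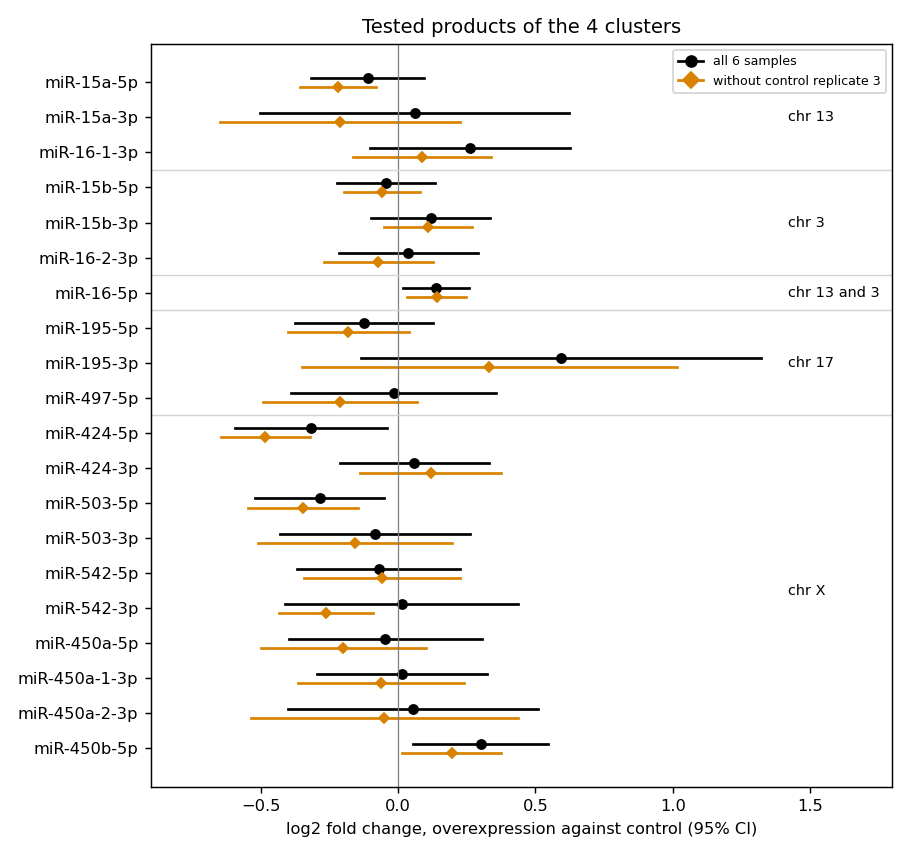
Log2 fold change of overexpression against control with its 95% CI for the tested products of the 4 clusters, with all 6 samples (black) and without control replicate 3 (orange), from edgeR with TMM factors. On chromosome X, miR-424-5p (-0.32) and miR-503-5p (-0.29) lie below 0 and miR-450b-5p (0.30) lies above it.

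miR-103a-3p and miR-107 are related to the family, since they hold the letters of the seed shifted by a base, and are shown for this reason with bases 2 to 8 in capitals.
hsa-miR-103a-3p: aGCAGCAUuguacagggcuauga
hsa-miR-107: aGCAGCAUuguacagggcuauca

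miR-103a-3p, known from the regulation of insulin sensitivity in the liver, had 19398, 20233 and 19822 TMM-scaled CPM with the circRNA plasmid and 16985, 17653 and 18276 CPM with the control plasmid. All overexpression samples were above all controls on this scale, as for miR-16-5p, and in TPM the groups overlapped. The difference on the log2 scale was 0.17 (SE 0.066, adjusted p 0.421 by edgeR), and without control replicate 3 it was 0.18 (adjusted p 0.0419 by edgeR). Scaling by the library size alone gave 0.051. miR-107 had a log2 fold change of 0.0014 (95% CI -0.18 to 0.19). The sequences of miR-103a-3p and miR-107 are nearly the same, so the division of reads between them is uncertain.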

How the data were processed

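miRNA sequencing of 3 overexpression and 3 control samples of Huh7 cells was used, grouped by the sample labels. The authors deposited counts, the number of reads assigned to each mature miRNA, with no scaling. TPM values, also deposited, equal the count scaled to the total of its sample to within 0.00303. The submitters' processing notes name TopHat2 2.0.9, Bowtie, TopHat and the build hg38. TopHat2 may apply to the mRNA libraries of the study, so its use for the miRNA counts is uncertain. Trimming, mismatches, the annotation of the miRNAs and the assignment of multiply matching reads are not given in the sources used here. Counts of miRNAs with similar sequences depend on these choices more than others. No molecular identifiers are named, so floors (3 counts) cover counting error only.

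Counts were analysed in R 4.3.3 with edgeR 4.0.16. miRNAs were kept by filterByExpr (minimum count 10, minimum total 15), scaled by TMM factors and compared between the groups by the two-sided quasi-likelihood test without covariates. p-values were adjusted over every tested miRNA by the Benjamini-Hochberg method, with a threshold of 0.05. The script was tested on simulated data. Ratios used counts with 0.5 added and exact permutation tests (Python 3.11.15, scipy 1.17.1), adjusted over the 8 planned ratios. The replicate numbers were not treated as pairs. The alternatives were DESeq2 1.42.0, limma 3.58.1 on log2 of CPM with 1 added, the library size alone, TMM factors computed without the members, omitting the filter, a filter of 10 counts in each sample, the replicate number as a block, an added count of 5 for the ratios, the library without miR-122-5p for the share, and leaving out each sample. Within groups, counts differed by more than sampling noise (chi-square per degree of freedom of 15.2 to 132), so each sample was counted separately.

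The miRNAs named were the 10 members, the other products of their clusters, their seed relatives, and miR-122-5p for the composition of the libraries. The members and lists were chosen with earlier results of these data known. RefSeq sequences matched 2281 of the 2588 deposited names.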

Additional observations from a re-analysis of the deposited data

How the results depend on the processing

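The direction of miR-16-5p, miR-15a-5p, miR-15b-5p, miR-195-5p, miR-424-5p and miR-503-5p was the same under all alternatives run. With the library size alone, 3 miRNAs were called in all and 0 members, the median over the members was -0.14 against -0.11 over all tested, and the log2 fold changes of miR-15b-3p, miR-16-2-3p and miR-424-3p were -0.0025, -0.076 and -0.058. Without the filter, 6 miRNAs were called and 0 members. DESeq2 gave 0 calls (41 at an unadjusted p under 0.05), limma 0 (52) and the stricter filter 0 (47). miR-497-5p changed sign with limma (0.021) and with the replicate number as a block (0.0069). The block gave 0 calls (42 at an unadjusted p under 0.05), a median of -0.019 over the members and 5 members lower. It changed no call. The labels do not say whether samples that share a replicate number belong together. The deviations of such samples from the group means correlated at -0.20, 0.19 and 0.15 over 295 miRNAs. In this measure, 1 of 3 overexpression samples and 2 of 3 controls correlated best with their own number. With 3 samples per group, these values cannot decide whether the numbers mark pairs. Leaving out each sample in turn gave 0 to 56 calls, 0 to 3 members called and a median of -0.13 to -0.0011 over the members. The 56 calls, the 3 members and the median of -0.13 came without control replicate 3. The log2 fold change ranged from -0.21 to 0.095 for miR-497-5p, from -0.020 to 0.12 for miR-424-3p and from -0.072 to 0.12 for miR-16-2-3p. The differences of the log2 ratios ranged from -0.21 to 0.011 for miR-16-2-3p to miR-16-5p, from -0.24 to 0.025 for miR-195-5p to miR-497-5p, from -0.081 to 0.14 for miR-503-5p to miR-424-5p and from -0.16 to 0.020 for miR-15a-5p to miR-15b-5p. Sign changes came without control replicate 1 (miR-424-3p, miR-497-5p, miR-16-2-3p to miR-16-5p, miR-503-5p to miR-424-5p), 2 (miR-497-5p, miR-503-5p to miR-424-5p, miR-15a-5p to miR-15b-5p) or 3 (miR-16-2-3p, miR-195-5p to miR-497-5p) and without overexpression replicate 1 (miR-497-5p, miR-503-5p to miR-424-5p) or 3 (miR-503-5p to miR-424-5p). Of the other values of single members, 117 changed neither in sign nor in call. The cause of these changes was not tested. The least abundant members, miR-497-5p and miR-424-3p, had 92 to 206 and 181 to 225 counts per sample, the fewest of the family.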
